A study of Mus musculus with 6 samples.

Results

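The S100 calcium-binding proteins are described here through 10 genes on a mouse bead array, S100a1, S100a3, S100a4, S100a6, S100a8, S100a9, S100a10, S100a11, S100a13 and S100a16. They were taken as every probe whose target name, case ignored, was 1 of these 10, which gave 10 of 30854 gene names and 10 of 45281 probes, with 1 probe for each gene. S100 proteins are small EF-hand proteins that usually pair into dimers and, on binding calcium, expose a surface that grips target proteins (S100A10 does so without calcium). Inside cells they act on annexins, the cytoskeleton and p53, and several are also released and bind surface receptors such as RAGE (Ager) and TLR4. In the gut, S100A8 and S100A9 together form calprotectin of neutrophils, and S100A4 is known from work on tumour spread and as a transcript of fibroblasts and other mesenchymal cells.

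Total RNA of 2 mouse colorectal cancer lines was compared, with 3 arrays for each. MC38 responds to EPA (eicosapentaenoic acid, a fatty acid of the omega-3 class). MC38r is resistant to it: the line had been kept in EPA, and its IC50 was 6-fold that of MC38. The medium of both lines was RPMI with added foetal calf serum, and the labels name no genetic change in either. The comparison asks which transcripts differ at baseline between resistant and sensitive cells, and with 1 line of each kind, resistance cannot be told apart from any other difference between the lines. The arrays are numbered as replicates without a statement that they came from separate cultures, so p-values measure only the spread between these arrays, which may be technical. All 6 arrays lay on 1 chip, the MC38 arrays on its first sections, so that position and line cannot be told apart. Housekeeping control signals were lower on the MC38r arrays (10271 to 10673) than on the MC38 arrays (11552 to 12858). Biotin control signals were lower there too (5450 to 6171 against 6241 to 7268). The part of these control differences in the results was not tested.

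The labelled tissue was checked against marker genes. None of 15 probes for colon epithelium, among them Epcam, Cdh1, Vil1 and Muc2, was above background on all 3 MC38 arrays, and 2 were on all 3 MC38r arrays (Cdx2 and Lgals4). Of 21 mesenchymal probes 11 were above background on all MC38 arrays and 6 on all MC38r arrays. Markers that define a colon epithelium were thus mostly not well above background in either line.

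S100 transcripts were mostly lower in the resistant line. S100a13 was 5.16-fold lower in MC38r, S100a4 2.62-fold lower, and S100a1, S100a11 and S100a10 between 1.45-fold and 1.5-fold lower, whereas S100a3 was 3.29-fold higher. S100a6 did not pass the test, and S100a8, S100a9 and S100a16 were too near background to be measured. Of the 7 measured genes 5 fell (71.4%) and 1 rose, in a comparison in which 27.0% of 13990 probes fell, 28.1% rose and 55.1% were called in all (limma, adjusted p under 0.05). In bulk RNA, fewer cells with a transcript and less of it per cell cannot be told apart. Below, a signal is the deposited normalized intensity of an array, a log2 signal is its logarithm after background modelling, and a fold is MC38r against MC38 on the log2 scale with an offset, which understates changes of dim probes.

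**Figure D1:**
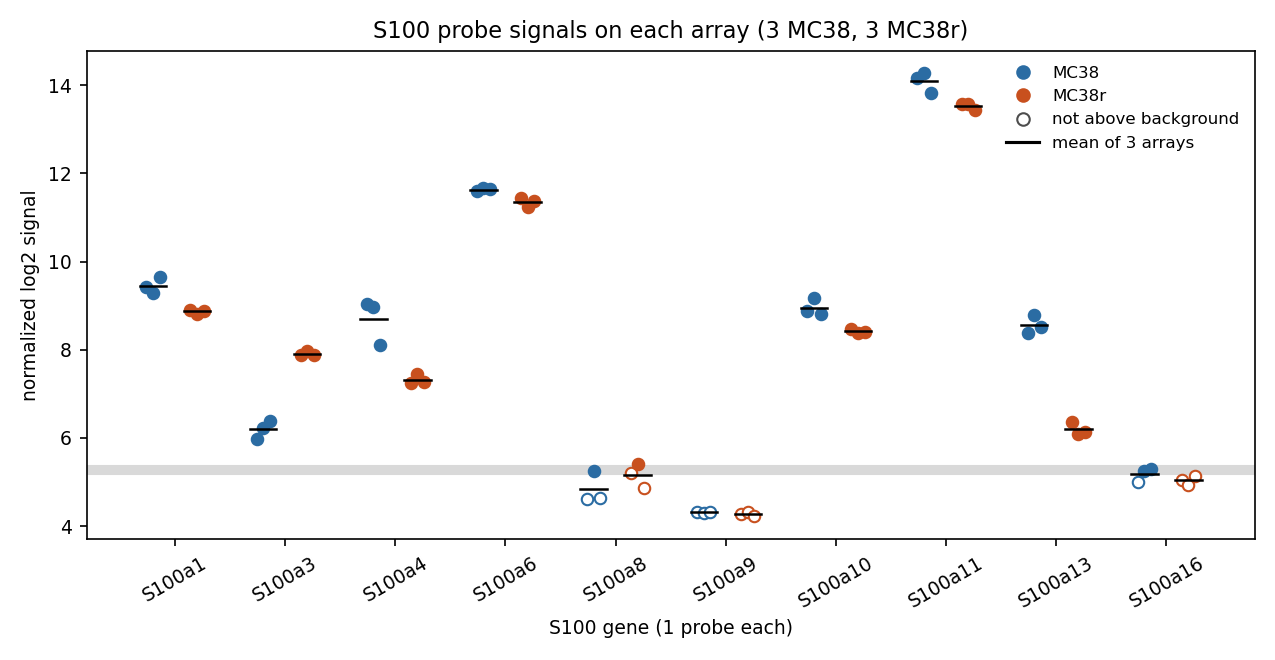
Normalized log2 signals (vertical axis) of the 10 S100 probes (horizontal axis) on each of the 3 MC38 (blue) and 3 MC38r (orange) arrays, with the mean of each line as a black bar. Open points are not above background, the grey band spans the lowest signals called above background on the 6 arrays (5.19 to 5.36), and the S100a13, S100a4 and S100a3 points of the 2 lines stand apart. Heights of different probes cannot be set against each other.

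The change of largest size was that of S100a13, which encodes a protein that carries FGF1 and interleukin-1 alpha out of the cell without a signal peptide. Its probe (1990091) read 319.8, 428.1 and 349.6 on the MC38 arrays and 67.3, 51.8 and 54.8 on the MC38r arrays. The lowest MC38 array lay far above the highest MC38r array, with a gap of 2.02 on the log2 scale. The mean log2 signal went from 8.57 ± 0.21 (SD, n = 3) to 6.2 ± 0.16, a change of -2.37 ± 0.15 (SE, limma adjusted p = 1.7e-06), and 2.49% of all probes tested had a change as low or lower. The cargo genes Fgf1 and Il1a were not above background on any array by any of their 4 probes.

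S100a1, best known as a regulator of calcium handling and contraction in heart muscle, is the next gene on chromosome 3 and runs the other way. Its probe (940338) read 672, 606 and 783 in MC38 and 461, 436.5 and 457.2 in MC38r. The MC38 arrays were all higher and more scattered than the MC38r arrays. The log2 signal fell by 0.58 (9.45 ± 0.18 to 8.87 ± 0.04, SE 0.14, adjusted p = 0.0056), a 1.5-fold difference. The change of S100a13 minus that of S100a1 was -1.79 on the log2 scale, with no overlap between arrays of the lines. An exact permutation test of this difference gave p = 0.1, two-sided, the smallest that 3 against 3 arrays allow. Adjusted over the 4 pairs of genes compared in this way, it was 0.13. The gap of 2.02 between the S100a13 lines exceeds the range of S100a1 over all arrays (8.82 to 9.64). The lack of overlap and the permutation p were therefore fixed beforehand and add nothing to the values of each gene.

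In RefSeq (build GRCm38.p6) the starts of S100a1, on the minus strand, and S100a13, on the plus strand, lie head to head with 104 bases between them. These bases are printed because both genes fell, by unequal amounts, from neighbouring starts. The stretch is 58.7% G or C. It is given on the plus strand, 5′ to 3′, and holds none of the motifs searched below.
Between S100a1 and S100a13, chr3:90514331-90514434: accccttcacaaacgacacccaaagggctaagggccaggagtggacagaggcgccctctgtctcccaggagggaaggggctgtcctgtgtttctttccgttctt

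S100a3 and S100a4 lie near each other on the same strand, with S100a2, for which the array names no probe, between them. S100a3 encodes a cysteine-rich protein of the hair cuticle, and S100a4 a protein that binds non-muscle myosin heavy chain and loosens its filaments. The S100a3 probe (6270228) read 47.5, 58.9 and 67.9 in MC38 and 220.5, 235.5 and 221.3 in MC38r. It was above background on all 6 arrays, and the MC38r arrays were all higher, within a narrow range. The log2 signal rose by 1.72 (6.2 ± 0.2 to 7.92 ± 0.05, SE 0.14, adjusted p = 8.8e-06), and 96.2% of the probes tested had a change as low or lower.

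The S100a4 probe (5720646) read 505.8, 489.6 and 261.1 in MC38 and 136.4, 157.6 and 138.3 in MC38r. MC38 replicate 3 stood well under the other 2 MC38 arrays, by more than the bead standard errors of 50.4, 49.7 and 20.5, yet above every MC38r array. The log2 signal fell by 1.39 (8.71 ± 0.51 to 7.32 ± 0.1, SE 0.23, adjusted p = 0.00081). Without MC38 replicate 3 the change was -1.69 (adjusted p = 5e-05). The MC38 spread of S100a4 was the widest among the 7 measured genes, whose SDs ran from 0.03 to 0.51 in MC38 and from 0.04 to 0.16 in MC38r. In 6 of the 7 the SD was larger in MC38, as it was for 58.8% of all probes tested.

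The changes of S100a3 and S100a4 differed by 3.11 on the log2 scale (no overlap between lines, exact permutation p = 0.1, the smallest possible, adjusted 0.13). The difference between S100a3 and S100a13 was 4.09 (no overlap, exact permutation p = 0.1, adjusted 0.13). These pairs were chosen with the values known. S100a3 was higher on every MC38r array and S100a4 and S100a13 lower, so the lack of overlap and the permutation p were fixed beforehand. They add nothing to the values of each gene.

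S100a6 encodes calcyclin, first described in growth-stimulated cells, which binds the ubiquitin-ligase adaptor CACYBP. Its probe (5080326) was bright on all arrays, with MC38 readings of 3080.8, 3216 and 3169.9 and MC38r readings of 2777.7, 2422.1 and 2622.2. The lines did not overlap, though the gap was only 0.15 on the log2 scale. The log2 signals were 11.63 ± 0.03 and 11.35 ± 0.1, a difference of -0.28 with a 95% confidence interval of -0.55 to 0 that did not pass (adjusted p = 0.086). Over 20 alternative settings its value lay between -0.32 and -0.22 and its adjusted p between 0.027 and 0.24, and it passed in 6 of them. Its partner Cacybp was above background on 2 MC38 arrays and on no MC38r array, with mean signals of 22.1 and -4.93, and was not tested.

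Upstream windows of 250 bases are printed for S100a3 and S100a4, the neighbours that moved in opposite directions. Capitals mark the motif TATAAA. The RefSeq promoter table holds 13 windows for 9 of the 10 genes. TATAAA was found in 3 of these 13 (S100a3 at 1 of its 4 listed starts, S100a4 and S100a8), and in 12.4% of all 32851 windows of that length. Both strands were searched, and the match is a description of letters only.
S100a3 upstream, plus strand, chr3:90588313-90588562: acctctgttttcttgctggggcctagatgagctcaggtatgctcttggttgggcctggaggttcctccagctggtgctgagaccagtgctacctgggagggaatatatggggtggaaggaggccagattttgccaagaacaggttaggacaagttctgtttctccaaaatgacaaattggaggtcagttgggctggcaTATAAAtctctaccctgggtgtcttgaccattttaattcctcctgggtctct
S100a4 upstream, plus strand, chr3:90603520-90603769: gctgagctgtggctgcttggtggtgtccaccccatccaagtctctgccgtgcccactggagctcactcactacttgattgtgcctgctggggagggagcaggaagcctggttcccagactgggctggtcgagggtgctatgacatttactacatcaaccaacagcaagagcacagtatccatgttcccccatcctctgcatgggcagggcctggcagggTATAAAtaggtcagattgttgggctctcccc

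S100a11 and S100a10 lie next to each other, 54 protein-coding genes away from the main cluster. S100A11 pairs with annexin A1, and S100A10 with annexin A2 in a complex that sits under the plasma membrane and helps to activate plasminogen. The S100a11 probe (5720523) read 18429.6, 19855.8 and 14432.8 in MC38 and 12134.5, 12134.5 and 11195 in MC38r. MC38 replicate 3 was the lowest of its line here too, as for S100a4 and S100a10. The log2 signal fell by 0.56 (14.09 ± 0.24 to 13.53 ± 0.07, SE 0.15, adjusted p = 0.011). A pseudogene of S100a11 is listed on another chromosome, and whether the probe also reads it was not tested.

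The S100a10 probe (6840180) read 453.8, 561.1 and 432.4 in MC38 and 340.2, 314.1 and 325.4 in MC38r. All MC38 arrays were higher, and MC38 replicate 2 was the highest. The log2 signal fell by 0.53 (8.95 ± 0.19 to 8.42 ± 0.06, SE 0.14, adjusted p = 0.0098). The changes of the 2 neighbours differed by 0.03 on the log2 scale, with overlap (difference -0.03 for S100a11 minus S100a10, exact permutation p = 0.8, adjusted 0.8), which does not show that they are equal.

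The window upstream of S100a11 is printed because it holds the most matches among the S100 genes. Capitals mark TGANTCA, the core of AP-1 sites, found 2 times here, and GGGCGG, the GC box, found 3 times, with no overlap between the motifs. TGANTCA was present in 2 of the 13 S100 windows, the other being 1 of S100a16, and in 6.75% of all windows. GGGCGG was present in 4 of the 13 and in 32.7% of all windows.
S100a11 upstream, plus strand, chr3:93520246-93520495: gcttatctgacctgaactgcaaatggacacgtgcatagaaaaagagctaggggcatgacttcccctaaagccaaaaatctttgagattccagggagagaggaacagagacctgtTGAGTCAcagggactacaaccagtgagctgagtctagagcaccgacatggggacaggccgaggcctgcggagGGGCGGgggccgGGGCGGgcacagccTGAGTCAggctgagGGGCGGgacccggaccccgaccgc

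S100a8, S100a9 and S100a16 did not reach the filter, which asked for a detection p under 0.01 on at least 3 arrays. The S100a8 probe (1190546) read 3.6, 22.6 and 4.4 in MC38 and 21.2, 27.2 and 11.8 in MC38r. It was above background on MC38 replicate 2 and MC38r replicate 2 alone, and the lines overlapped. S100a9 (1980603), the other chain of calprotectin, was not above background on any array, with signals between -24.2 and -11.5. S100a16 (1300037), a broadly expressed member, read 15.5, 22 and 23.5 in MC38, above background on 2 arrays, and 16.5, 13.5 and 19.3 in MC38r, above background on none. When all 45281 probes were tested, the log2 differences were 0.33 for S100a8 (adjusted p = 0.48), -0.04 for S100a9 (0.8) and -0.14 for S100a16 (0.53). No difference was detectable at this brightness, which does not show that there is none.

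**Figure D2:**
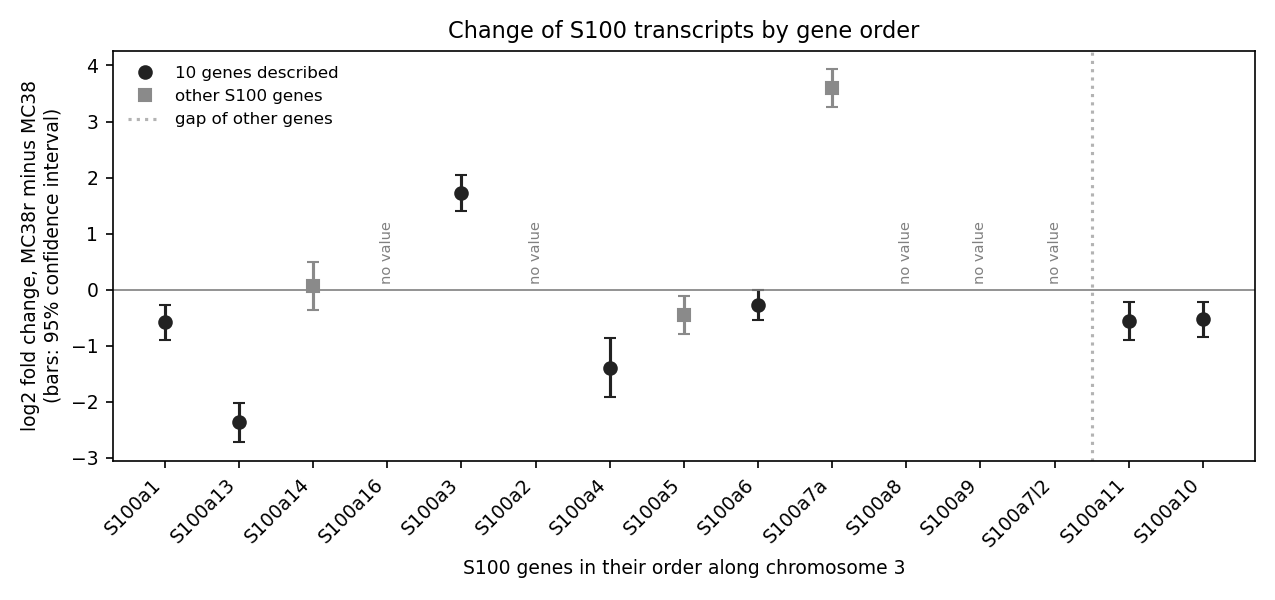
Log2 fold change of MC38r against MC38 (vertical axis, with 95% confidence intervals) for S100 genes in their order along chromosome 3 (horizontal axis). Round points are the 10 genes described, squares are other S100 genes, genes with no fitted value are marked, and the dotted line stands for the 54 genes before S100a11. S100a3 and S100a7a lie above 0, and S100a4, S100a5 and S100a6 between them below it.

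All 7 measured genes had non-overlapping lines, in a comparison where 61.5% of the probes tested did. All 7 were above background on all 6 arrays, so none passed the filter through 1 line alone. Their median log2 change was -0.56, beside 0.03 over all probes, and the median size of change over all probes was 0.5. S100a1, S100a10 and S100a11 were thus close to the typical size of change, and 3 of the 7 (S100a13, S100a4 and S100a3) were at least 2-fold, where 22.9% of all probes were. Between 26 and 56 beads stood behind each S100 signal.

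**Figure D3:**
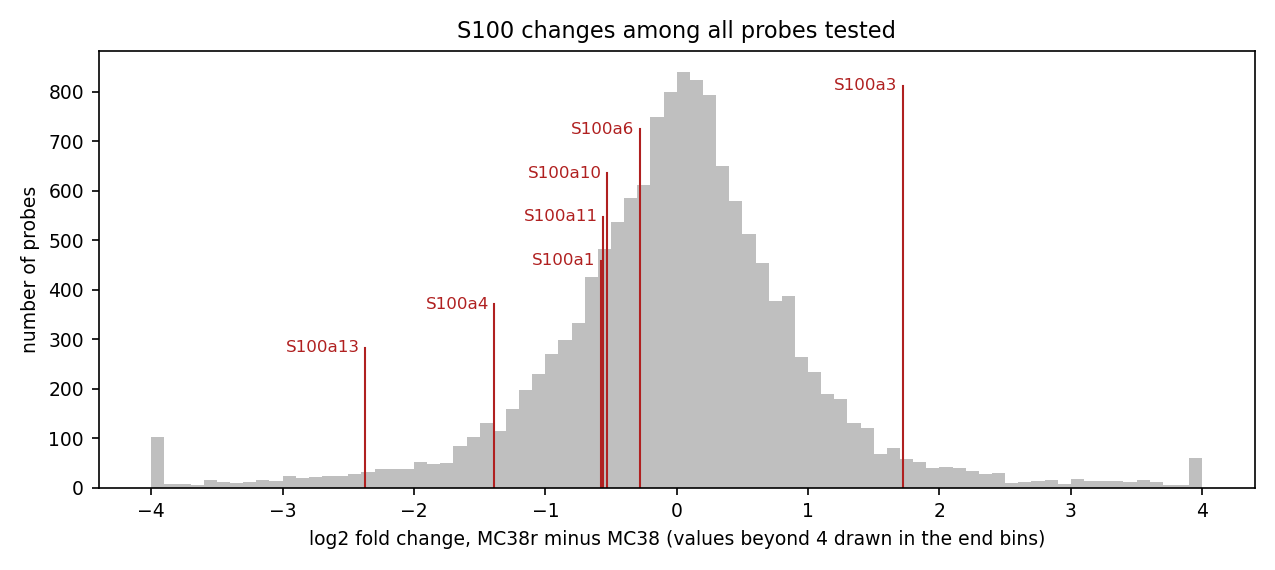
Distribution of log2 fold changes, MC38r minus MC38, over the 13990 probes tested (grey, number of probes per bin of the horizontal axis), with the 7 measured S100 genes as red lines. S100a13 and S100a3 stand in the tails, and S100a6, S100a10, S100a11 and S100a1 within the bulk.

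Of the other S100 genes 3 were measured, by 1 probe each: S100a7a rose, S100a5 fell and S100a14 did not pass. S100a7a, which encodes a skin protein related to human psoriasin, lies between S100a6 and S100a8. It read 187.7, 157.4 and 215.6 in MC38 and 2215.3, 2517.9 and 2527.9 in MC38r. The MC38r arrays were all far higher, a 12.1-fold rise (7.65 ± 0.21 to 11.25 ± 0.11, adjusted p = 8.8e-08), larger than that of any of the 10 genes. S100pbp, not an S100 gene itself but that of a nuclear partner of S100P in human cells, was listed with them and rose 1.77-fold by its brighter probe (adjusted p = 7e-04) and 1.54-fold by the other (0.018). With S100pbp, 3 of 5 measured probes rose and 1 fell, where 28.1% of all probes rose and 27.0% fell. The median log2 change of the 5 was 0.62. S100a5 was 1.37-fold lower (33.6, 36.6 and 33.3 against 21.7, 27 and 14, adjusted p = 0.029), a call lost under 10 alternatives. Among these alternatives were the omissions of any 1 of 5 arrays, with adjusted p between 0.051 and 0.12, while the call was kept without MC38r replicate 2. Also among them were the replicate block (0.051), an offset of 50 (0.067), no filter (0.053) and an unmoderated model (0.066). S100a14 stood at 5.28 ± 0.35 and 5.35 ± 0.18 (adjusted p = 0.81), and S100b and S100g were not above background on any array.

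Of the annexins, membrane-binding proteins that S100 dimers link, 4 of 11 measured probes were called (36.4%, all probes 55.1%). Of these, 2 were up and 2 down, and the median over the 11 was 0.09. Anxa1, the partner of S100A11, was 4.43-fold lower (8.78 ± 0.55 to 6.64 ± 0.35, adjusted p = 0.00016). Anxa9 was 1.49-fold lower by a dim probe (mean signals of 36.6 and 19.1, adjusted p = 0.0078), above background on only 1 MC38r array. Anxa3 rose 1.96-fold by its more changed probe (13.59 ± 0.04 to 14.56 ± 0.12). Anxa2, the partner of S100A10, chosen after its values were seen, stood at 14.14 and 13.88 (log2 change -0.26, adjusted p = 0.1). Anxa11 (-0.36) and Anxa6 (0.34) did not pass either, although Anxa6 did with array weights (adjusted p = 0.016) and without MC38 replicate 2 (0.47, adjusted p = 0.018).

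Among intracellular targets 16 of 25 measured probes were called (64.0%, all probes 55.1%), 6 up and 10 down, with a median of -0.12. The myosin light chain Myl9 was at least 1.57-fold lower by 1 probe, which passed the filter through MC38 alone and so had to differ. Its other measured probe, above background on 3 MC38 and 2 MC38r arrays, was 1.59-fold lower (adjusted p = 0.011). Atp2a2, the calcium pump that S100A1 regulates in muscle, was 2.87-fold lower (9.97 ± 0.25 to 8.45 ± 0.25, adjusted p = 8.4e-05). The p53 regulators Mdm2 (2.87-fold, 9.99 ± 0.14 to 11.52 ± 0.13) and Mdm4 (2.68-fold, above background on 1 MC38 array) rose. Capza1 (-0.5) and Ppp5c (0.3) did not pass, although Ppp5c did with an offset of 50 (0.046), no filter (0.046) and an unmoderated model (0.033), and Capza1 did with array weights (0.032) and without MC38 replicate 2 (-0.78, adjusted p = 0.03). Described targets of S100A4, chosen after their values were seen, did not move one way. Myh9, the non-muscle myosin heavy chain, was 1.69-fold lower (adjusted p = 0.0048) and the tropomyosin Tpm1 2.15-fold lower by its brighter probe (adjusted p = 0.0018). Trp53, the gene of p53, rose 1.6-fold by its brighter probe (adjusted p = 0.0037). Ppfibp1, which encodes liprin beta 1, did not pass by either probe (log2 changes of 0.1 and -0.24). Probes of Ahnak, a scaffold that binds S100A10 with annexin A2, disagreed, with log2 changes of -1.29, -0.71, 0.18 and 0.35. The brightest probes (0.35 and 0.18) did not pass. The dimmest (-0.71, at least 1.34-fold lower) passed the filter through MC38 alone and so had to differ.

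Receptors and extracellular partners were measured by few probes, since 23 of 33 were not above background on any array. Of 8 measured probes 5 fell and 2 rose (87.5% called, all probes 55.1%), with a median of -0.88. Egfr (at least 2.29-fold) and Alcam (at least 1.8-fold) were lower and passed the filter through MC38 alone, so that they had to differ. Plat, the tissue plasminogen activator that S100A10 can bind, was 2.29-fold lower (8.2 ± 0.14 to 7.01 ± 0.27), and Emb, an S100A8 and S100A9 receptor, 2.25-fold lower (8.62 ± 0.19 to 7.46 ± 0.09). Cd33 stood at 5.22 ± 0.31 and 5.47 ± 0.2 (adjusted p = 0.28). Tlr4, chosen after its values were seen, rose by 1.08 and 0.55 on the log2 scale by its 2 measured probes. Of the 2 probes of Ager, the gene of RAGE, 1 was above background on a single MC38r array.

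Other EF-hand genes were called in 42.1% of 19 measured probes (all probes 55.1%), 4 up and 4 down, with a median of -0.18. The calmodulin gene Calm3 was 1.78-fold lower (11.43 ± 0.29 to 10.59 ± 0.14, adjusted p = 0.0026) and the calpain gene Capn1 1.74-fold lower. Sorcin, Sri, rose 1.75-fold by its most changed probe (adjusted p = 0.012), a call lost with no filter (0.058) and with an unmoderated model (0.084). Its other measured probes rose 1.64-fold (adjusted p = 0.0056) and 1.5-fold (adjusted p = 0.028). Sdf4, a calcium-binding protein of the Golgi, was 1.72-fold lower (adjusted p = 0.041), but did not pass without MC38r replicate 1 (0.055), 2 (0.073) or 3 (0.13), with the series values (0.055), an offset of 50 (0.056), no filter (0.18) or an unmoderated model (0.18). Capn2 (-0.33) and Calm2 (-0.32) did not pass.

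Genes around the S100 cluster, from both flanks and the stretch between, were called in 41.9% of 31 measured probes (all probes 55.1%). Of these, 6 were up and 7 down, and the median over the 31 was -0.07. The 4 genes named by the size of their change all lay beyond S100a10, 9 to 20 protein-coding genes from it. Tdrkh rose 9.23-fold by its brighter probe (6.05 ± 0.02 to 9.26 ± 0.11, adjusted p = 6.1e-08), Tuft1 2.63-fold and Them4 at least 1.35-fold. The probe of Them4 passed the filter by MC38r alone and so had to differ. Snx27, next to Tuft1, was 2.51-fold lower by its most changed probe and 1.71-fold lower by its brightest. Rab13 (-0.48) and Ints3 (-0.47) did not pass, although both did under some alternatives. Rab13 passed without MC38 replicate 3 (-0.67, adjusted p = 0.013), with cyclic loess (0.036), the series values (0.031), the replicate block (0.044) and array weights (0.026). Ints3 passed without MC38 replicate 2 (-0.71, adjusted p = 0.0022), with the series values (0.044) and with array weights (0.0037). Chtop, the gene directly before S100a1, named 2500003M10Rik on the array and chosen after its values were seen, rose by its brighter probes, with log2 changes of 0.44 (adjusted p = 0.019) and 0.37 (adjusted p = 0.023), and did not pass by the other 2 (0.15 and -0.06).

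**Figure D4:**
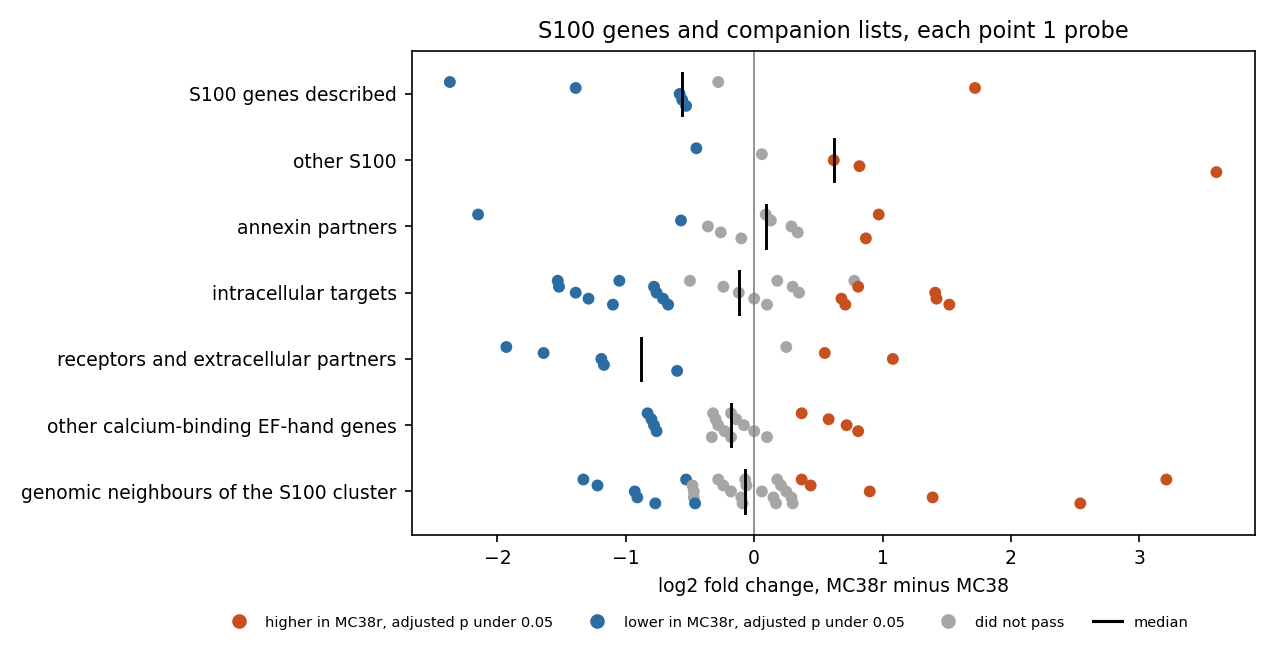
Log2 fold change of MC38r against MC38 (horizontal axis) of each measured probe in the S100 genes and the companion lists (vertical axis), with the median of each list as a black bar. Orange and blue points passed the limma test upward and downward, and grey points did not. The S100 genes described and the receptors lie mostly to the left of 0.

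Markers of cells in which S100 genes are best known were read beside these values. Of 38 myeloid and neutrophil probes, 2 were above background on all MC38 arrays and 1 on all MC38r arrays, and 32 on no array, Ptprc, Itgam, Csf1r, Ngp and Camp among them. Their summed signal was 257 to 357 in MC38 and 368 to 404 in MC38r. Mpo (probes 940309 and 6580021) and Lcn2 were above background on 2 MC38r arrays each and on no MC38 array, and were not tested. Of the 2 measured probes, that of Cd14 rose 1.34-fold (limma adjusted p = 0.015) and that of Cd68 fell 1.56-fold (0.0042). Mesenchymal markers, with which S100a4 is often grouped, were called lower by 8 of 12 measured probes and higher by 3, beside 27.0% and 28.1% of all probes. Their summed signal was 17800 to 20900 in MC38, carried mostly by Vim and Acta2, and 4050 to 4160 in MC38r, carried mostly by Vim. Single probes of Col3a1, Pdgfrb and Acta2 passed the filter through MC38 alone, and 1 of Dcn through MC38r alone, so these had to differ. Vim, the intermediate filament vimentin, was lower by 1.79 on the log2 scale (a change of -1.79, adjusted p = 3.4e-06). The 4 measured probes of Acta2, smooth muscle actin, changed by -6.41, -4.48, -3.46 and -3.45, the last with a bound of at least 8.32-fold. In the same list Pdgfra rose by 1.09 and Dcn, the gene of decorin, by 0.82 and 0.53 on the log2 scale. For the 0.53 the bound was at least 1.09-fold. Keratinocyte markers rose by all 7 measured probes of 15 on the array, beside 28.1% of all probes. Most of the 7, all those of Cdsn and the brighter ones of Lgals7, passed the filter through MC38r alone and so had to be higher. Their bounds ran from at least 10.7-fold to at least 124-fold. Krt10 rose 1.52-fold (adjusted p = 0.0034), and the dimmest Lgals7 probe, above background on 2 MC38 arrays, 3.17-fold (adjusted p = 2.5e-05). The summed signal of the list was 596 to 662 in MC38 and 9670 to 10100 in MC38r, carried by Lgals7, Cdsn and Krt10. Krt5, Krt14, Krt1, Trp63, Dsg3 and Sfn were not above background on any array. The part of these marker differences in the changes of S100a3, S100a4 and S100a7a was not tested.

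The authors' deposited table of 6244 genes, which reaches an unadjusted p of 0.05 by a test not stated, lists 4 of the 10 genes. There, in the authors' deposited table, the gene S100a3 had a ratio of 2.85 (adjusted p = 0.0114), S100a13 a log2 ratio of -2.13 (adjusted p = 0.1023), S100a1 of -0.57 (0.2322) and S100a6 of -0.28 (0.1834). All 4 had the direction found here. At an adjusted p of 0.05 only S100a3 passed there, while the fit used here also called S100a13 and S100a1. It further called S100a4, S100a10 and S100a11, which the authors' deposited table does not list.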

How the data were processed

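Samples of MC38 (3) and MC38r (3) were hybridised to Illumina mouse bead arrays (MouseWG-6 v2). The probe table came from GenomeStudio, per the file headers, where the authors applied quantile normalization. The deposited linear intensity falls under 0 for some probes, as after background subtraction. Deposited detection values are a score, 1 minus the detection p-value. The authors' deposited comparison gives a ratio, its log2 value and a p-value. No genome build is named for the arrays.

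The design assumed raw signals; these were already processed. They went through normexp (nec of limma 3.58.1, R 4.3.3, offset 16), log2 and quantile normalization. The filter kept 13990 probes, those whose detection p was under 0.01 on 3 or more arrays, which left 7 of the 10 S100 probes. All were fitted together with limma (lmFit, eBayes, line as the only term) and adjusted by Benjamini-Hochberg, with a threshold of 0.05. The fit was tested on simulated data. A probe that no array of a line called above background has a bound ("at least"), set against the lowest signal above background on each array (5.19 to 5.36, log2).

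All S100 probes are named. From each companion list up to 4 genes past the threshold and 2 that were not are named by size of change, and other genes are said to be chosen after their values were seen. The S100 genes and lists were chosen with earlier results of these data known. Array names are matched through RefSeq symbols and synonyms (GRCm38.p6), which also gave gene order and sequences. No column of other samples was used. Alternatives covered normalization, background, offset, filter, probe choice, variance model, replicate block and omission of each array. The number of arrays limits the precision: the median standard error was 0.16.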

Additional observations from a re-analysis of the deposited data

How the results depend on the processing

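The count of S100 probes past the threshold was 6 in the fit described and 6 or 7 under every alternative run, the seventh being S100a6. It passed with the series values (adjusted p = 0.037), an offset of 50 (0.041), no filter (0.047), trend and robust variances (0.046), array weights (0.043) and an unmoderated model (0.027). S100a1, S100a3, S100a4, S100a10, S100a11 and S100a13 kept their direction and call under all 20 alternatives. The change of S100a13 ranged from -2.66 to -1.94, of S100a4 from -1.69 to -1.22 and of S100a3 from 1.36 to 1.97. With 1 array left out, the S100 count was 6 each time, that over all probes 6728 to 8066 (7713 with all arrays) and that of the companion lists 45 to 58 (52). With 1 probe per gene the companion count was 33 of 61, since fewer probes were tested. Over 630 values of 32 named companion probes 588 kept direction and call, 19 lost the call, 18 gained it and 5 changed sign. Calls were lost for S100a5, Sdf4 and Sri and gained for Anxa6, Capza1, Ppp5c, Rab13 and Ints3. The sign changed for S100a14 alone: -0.02 with the series values, -0.04 with array weights, -0.13 without MC38 replicate 2, -0.02 without MC38r replicate 3 (range -0.13 to 0.2 with 1 array left out), and -0.15 without both MC38 replicate 2 and MC38r replicate 1. These 2 arrays deviate together (correlation of deviations 0.62), and leaving both out, chosen after seeing the data, gave 6 S100 calls. Same-numbered arrays did not pair (correlations of -0.46, -0.44 and 0.3). With the replicate block 6 S100 probes, 48 companions and 6887 probes were called. Dim probes limit what S100a8, S100a9 and S100a16 can show.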
